A study of Mus musculus with 11 samples.

Results

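The genes described here are those that peaked in double-positive cells of naive extra-embryonic endoderm (nEnd), a mouse cell line cultured as a counterpart of the primitive endoderm. Of 48952 genes in a bulk count table, 86 were members. Their values are read counts scaled to the total of each library (CPM). The members were chosen by these CPM values alone, without a test. A member had a mean of at least 5 CPM over the 3 DP libraries, this mean was at least 2.8 times that of both other populations, and its lowest DP library lay above the highest of the other 6 libraries. Amn, Cubn, Apoc1, Bmp8a and Aldh1l1 were left out by name, of which 4 passed the same thresholds. Of 10315 genes with a DP mean of at least 5 CPM, 90 passed, which is 0.873%, and the lowest DP library lay above all others for 6.2%.

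In the OCT4-mCherry line, in which a red fluorescent reporter marks OCT4 protein, nEnd cells were sorted into Pdgfra+ cells (reporter-negative), Oct4+ cells (without surface PDGFRA) and DP cells that carried both, with 3 libraries each and 8019631 to 11642571 reads per library. The single-cell data came from the Oct4-LOF nEnd line (EPUc), in which 4-hydroxytamoxifen (4OHT) removes Oct4 function, with 1 library without treatment (-4OHT) and 1 with 4OHT followed by further culture in the same medium (+4OHT). Both lines were grown in medium containing Activin A, the GSK3 inhibitor CHIR99021 and LIF, on mouse fibroblast feeders. The paper calls the bulk samples biological replicates, but neither label gives an animal or a separate derivation for a replicate. The p-values therefore measure the spread between these libraries of the same line. The 4OHT comparison has no replicates.

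The primitive endoderm forms beside the epiblast in the late blastocyst and gives rise to visceral endoderm, an absorptive epithelium around the embryo, and to parietal endoderm, which lays down a thick basement membrane. Pdgfra is a receptor of the endoderm lineage, while Pou5f1 encodes OCT4, a transcription factor of pluripotent cells that early primitive endoderm also holds. Visceral endoderm takes up nutrients through apical receptors, among them the Cubn and Amn pair, and is known for a brush border, lysosomes and secreted regulators such as Dkk1. The sort could be read in the counts. Pou5f1 was at 125, 234 and 294 CPM in DP, against 24.3, 7.81 and 16.4 CPM in Pdgfra+ and 1260.0, 1079 and 969 CPM in Oct4+. Pdgfra was at 598, 401 and 682 CPM in DP, against 630.5, 499 and 899.6 CPM in Pdgfra+ and 5.5, 13.9 and 5.86 CPM in Oct4+. The ranges of Pdgfra in DP and Pdgfra+ overlapped, and Pou5f1 in DP lay between the other populations. Markers of feeder fibroblasts summed to 10.2 to 51.5 CPM in Pdgfra+ and DP libraries and to 13.7 to 178 CPM in Oct4+ libraries.

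The promoter sequences of 65 of the 86 genes were found in RefSeq (GRCm38.p6), with 1 window per gene that lies mostly upstream of an annotated transcription start and runs a short way past it. They are shown for Jaml, Phactr1 and Naip6, which hold letters of a factor tied to the sort or to endoderm, and for Ckb. The octamer ATGCAAAT, searched on both strands, is the motif bound by OCT4 and other POU factors, and it was in 2 of the 65 windows (3.08%), those of Jaml and Phactr1, against 1.75% of 27025 promoters. The letters AGATAA, written for the endoderm regulators GATA4 and GATA6, were in 3 windows (4.62%) including Naip6, against 11.4% of all. Ckb is shown with TATAAA, the letters of the TATA box. At any position and on either strand, 8 member windows held these letters (12.3%, against 14.2%). Capitals mark the motif. The windows are chr9:45078933-45079232, plus strand for Jaml, chr13:42680549-42680848, plus strand for Phactr1, chr13:100316567-100316866, minus strand for Naip6 and chr12:111672289-111672588, minus strand for Ckb.
Jaml: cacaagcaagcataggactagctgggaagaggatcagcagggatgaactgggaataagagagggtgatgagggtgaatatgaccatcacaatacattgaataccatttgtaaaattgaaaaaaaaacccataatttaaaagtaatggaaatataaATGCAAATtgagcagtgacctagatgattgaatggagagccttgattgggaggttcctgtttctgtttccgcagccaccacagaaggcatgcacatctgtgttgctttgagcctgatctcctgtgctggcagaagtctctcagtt
Phactr1: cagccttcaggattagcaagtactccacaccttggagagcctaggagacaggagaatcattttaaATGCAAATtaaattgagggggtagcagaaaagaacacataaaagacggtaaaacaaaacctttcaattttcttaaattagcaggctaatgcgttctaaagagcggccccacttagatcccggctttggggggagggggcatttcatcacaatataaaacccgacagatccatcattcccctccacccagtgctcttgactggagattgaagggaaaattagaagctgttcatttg
Naip6: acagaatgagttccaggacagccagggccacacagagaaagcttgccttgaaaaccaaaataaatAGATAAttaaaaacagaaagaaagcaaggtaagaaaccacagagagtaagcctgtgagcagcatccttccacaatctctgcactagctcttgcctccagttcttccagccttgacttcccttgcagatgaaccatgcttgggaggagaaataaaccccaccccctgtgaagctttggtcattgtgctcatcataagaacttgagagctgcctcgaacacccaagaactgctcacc
Ckb: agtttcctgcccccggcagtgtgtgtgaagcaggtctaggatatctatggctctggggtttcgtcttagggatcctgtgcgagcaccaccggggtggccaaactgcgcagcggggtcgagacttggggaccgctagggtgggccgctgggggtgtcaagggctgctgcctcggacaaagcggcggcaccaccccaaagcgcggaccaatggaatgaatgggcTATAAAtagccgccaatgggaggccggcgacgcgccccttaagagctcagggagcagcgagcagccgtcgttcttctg
These are matches of letters and not shown to be bound.

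Of the other motifs searched on both strands, CCNCNCCC, written for KLF and SP factors, was in 48 of 65 member windows (73.8%) against 49.1% of all promoters. The member windows were also richer in G and C, with a median of 58.3% against 52.7%, and held a median of 12 CpG pairs against 7, and the part of this base composition in the KLF count was not tested. GGAATG (TEAD) was in 10 windows (15.4%, against 14.6%), TGANTCA (AP-1) in 2 (3.08%, against 7.93%) and CATGTC (an element of the p53 site) in 3 (4.62%, against 10.4%). TGTTTAC (FOXA), GTTAATNAT (HNF1), CAAGGTCA (ESRRB) and CTTTGAT (TCF/LEF) were each in 1 window (1.54%), against 3.55%, 0.836%, 1.53% and 3.72% of all. ACAATGG (SOX), CAAAGTCCA (HNF4), TTCCNGGAA (STAT) and TGACGTCA (CRE) were in none of the 65, against 3.71%, 0.477%, 1.15% and 1.88%.

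Since the rule was written on the DP, Pdgfra+ and Oct4+ levels, the height of the members in DP is a description and carries no test. DP means ran from 5.19 to 484 CPM with a median of 24.2 CPM. DP was above Pdgfra+ by a median of 4.16 times (range 2.81 to 28.5) and above Oct4+ by a median of 10.5 times (range 2.8 to 579), so that for most members the next population was Pdgfra+, whose mean exceeded that of Oct4+ for 66 of 86 genes. Within DP, the libraries did not sit at one level. DP 3 was the highest of the 3 for 53 genes and DP 1 the lowest for 51, and the members summed to 4186, 6313 and 7276 CPM in DP 1, 2 and 3, against 1169 to 1828 CPM in Pdgfra+ and 705 to 943 CPM in Oct4+. The map of members by library shows these steps. Beside them, the summed level of 17 pluripotency genes was 996 to 1172 CPM in DP, 513 to 768 CPM in Pdgfra+ and 3382 to 5539 CPM in Oct4+, and its part in the members' level was not tested. In sorted bulk samples more cells of a type and more RNA per cell cannot be told apart.

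**Figure D1:**
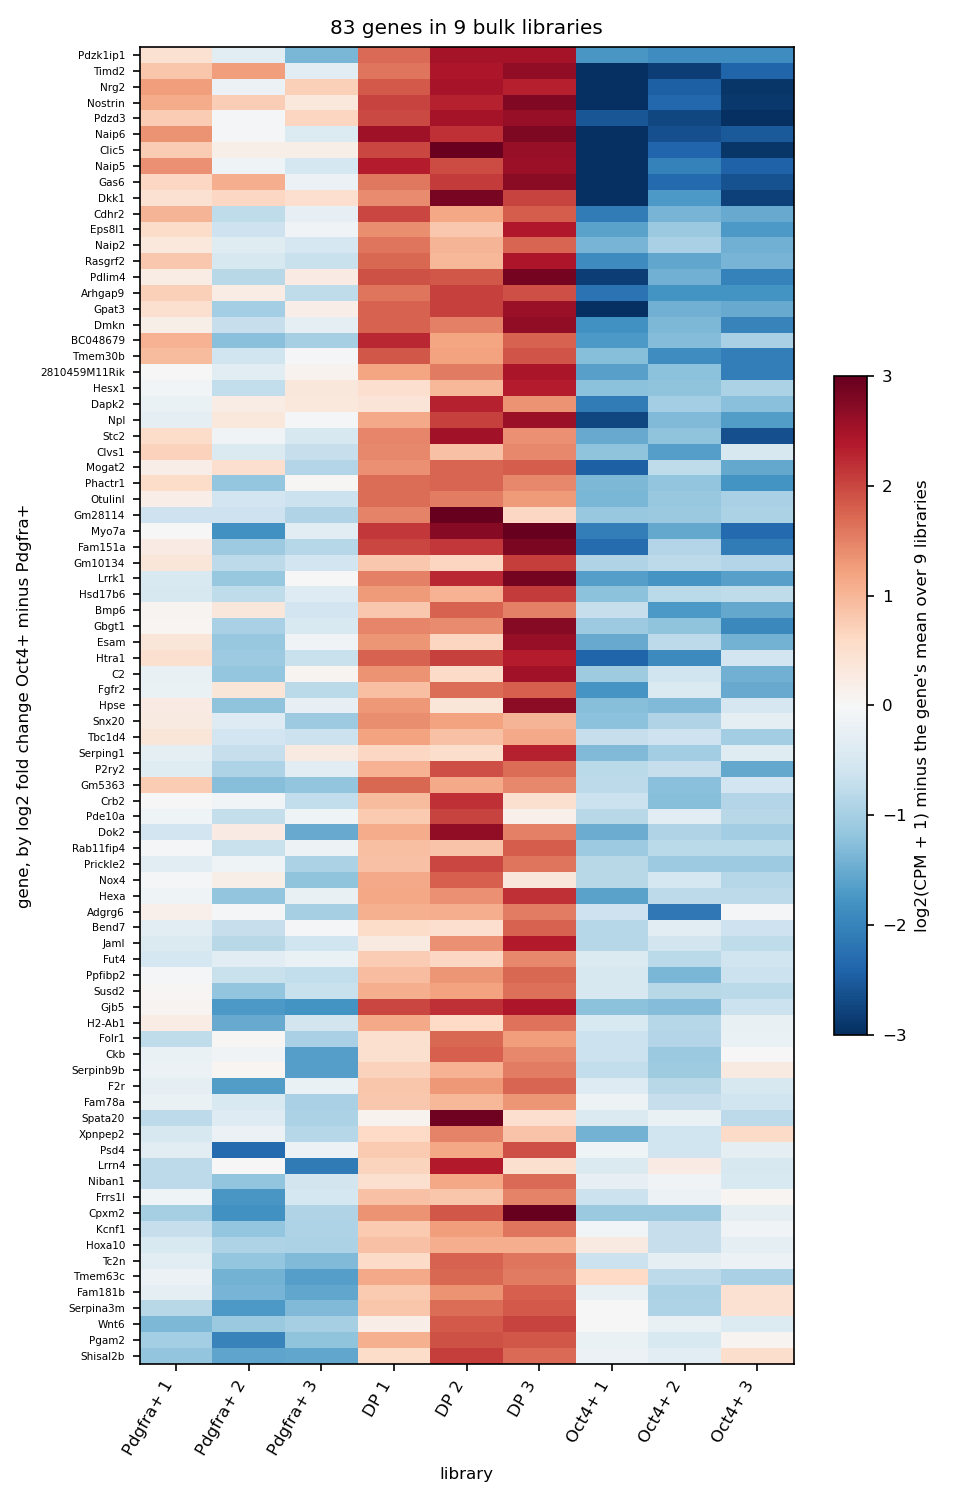
Each row is 1 of 83 members and each column a bulk library, and the colour is log2(CPM + 1) minus the gene's mean over the 9 libraries (red higher, blue lower, colours end at 3 either way). The 3 DP columns are red throughout, palest in DP 1, and the rows at the top are bluest in the 3 Oct4+ columns while those at the bottom are bluest in Pdgfra+.

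Gjb5, a connexin that forms channels between neighbouring cells (chr4:127354809-127358181, GRCm38), was at 106, 122 and 142 CPM in DP, against 27.2, 7.06 and 6.7 CPM in Pdgfra+ and 10.5, 9.92 and 16.2 CPM in Oct4+. Its DP mean was 9.02 times the higher of the other means. Pdgfra+ and Oct4+ overlapped, and the test between them was not passed (edgeR adjusted p = 0.45).

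Proteins of the apical surface and of vesicle traffic made up 12 members, with DP means of 6.25 to 195.5 CPM and ratios of 2.81 to 10.2. Myo7a, an unconventional myosin that moves along actin, was at 117, 177 and 255 CPM in DP, against 26.4, 6.69 and 20.6 CPM in Pdgfra+ and 5.41, 8.34 and 4.36 CPM in Oct4+. Nostrin, an adaptor in endocytosis, was at 149.7, 183 and 254 CPM in DP, against 79.2, 60.7 and 45.1 CPM in Pdgfra+ and 1.29, 6.31 and 3.99 CPM in Oct4+. Rab11fip4, a partner of the recycling endosome GTPase Rab11, was at 149.6, 145 and 283 CPM in DP, against 77.3, 49.5 and 71.6 CPM in Pdgfra+ and 36.6, 45 and 45.4 CPM in Oct4+. In Nostrin the Oct4+ libraries lay far under Pdgfra+, whereas in Rab11fip4 they were close beneath it. Clic5, a protein of actin-rich projections, was at 86.8, 169.5 and 132 CPM in DP, against 35.8, 23.6 and 23.7 CPM in Pdgfra+ and 1.03, 3.15 and 1.87 CPM in Oct4+. Pdzk1ip1, a small membrane protein that interacts with PDZ scaffolds, was at 10.8, 19.5 and 19.5 CPM in DP, against 3.94, 1.86 and 0.388 CPM in Pdgfra+ and 0.0859, 0 and 0 CPM in Oct4+. Cdhr2, a cadherin that links microvilli and the only member in the brush border list, was at 19.1, 10.3 and 16.6 CPM in DP, against 9.11, 1.95 and 3.2 CPM in Pdgfra+ and 0.172, 0.901 and 0.748 CPM in Oct4+. In each of these 3 genes every Oct4+ library lay under every Pdgfra+ library. By group mean (DP, Pdgfra+ and Oct4+), the rest were Pdzd3 (80.0, 20.8 and 1.24 CPM), Tmem30b (59.1, 21.1 and 4.82 CPM), Crb2 (39.2, 12 and 7.17 CPM), Psd4 (15.6, 3 and 4.13 CPM), Eps8l1 (12.2, 3.18 and 0.498 CPM) and Snx20 (6.25, 1.56 and 0.88 CPM), among which Crb2 is an apical polarity protein, Pdzd3 a PDZ scaffold and Tmem30b a subunit of lipid flippases.

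Enzymes of metabolism were 11 members. Ckb, the cytosolic creatine kinase, took the most reads of any member and was at 267, 661 and 524 CPM in DP, against 168, 176 and 60.3 CPM in Pdgfra+ and 121, 87.9 and 192 CPM in Oct4+. Npl, which splits sialic acid, was at 176, 332 and 481 CPM in DP, against 65.4, 98.2 and 76.4 CPM in Pdgfra+ and 11.1, 30.9 and 23.9 CPM in Oct4+. Hexa, a lysosomal hexosaminidase subunit, was at 186, 218 and 386 CPM in DP, against 76.7, 35.9 and 70.9 CPM in Pdgfra+ and 26.8, 48 and 48 CPM in Oct4+. Every DP library of the 3 genes lay above all the others, as the rule requires of each member, and the smallest DP values were in DP 1. Hsd17b6, a steroid and retinol dehydrogenase, was at 4.61, 3.83 and 8.93 CPM in DP, against 0.675, 0.372 and 0.777 CPM in Pdgfra+ and 0, 0.338 and 0.374 CPM in Oct4+. Lipid synthesis was represented by Gpat3 and Mogat2, acyltransferases of the triglyceride pathway, with group means of 53.8 CPM in DP, 11.3 in Pdgfra+ and 2.39 in Oct4+ for Gpat3 and 34.2 CPM in DP, 10.5 in Pdgfra+ and 3.14 in Oct4+ for Mogat2. The remaining group means (DP, Pdgfra+ and Oct4+) were Gbgt1 (24, 3.68 and 1.4 CPM) and Fut4 (8.32, 2.71 and 2.1 CPM), both glycosyltransferases, Pgam2 (14.1, 0.868 and 3.26 CPM), a glycolytic mutase, Nox4 (13.1, 4.18 and 2.68 CPM), an NADPH oxidase, and Pde10a (5.19, 1.19 and 0.714 CPM), a phosphodiesterase.

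**Figure D2:**
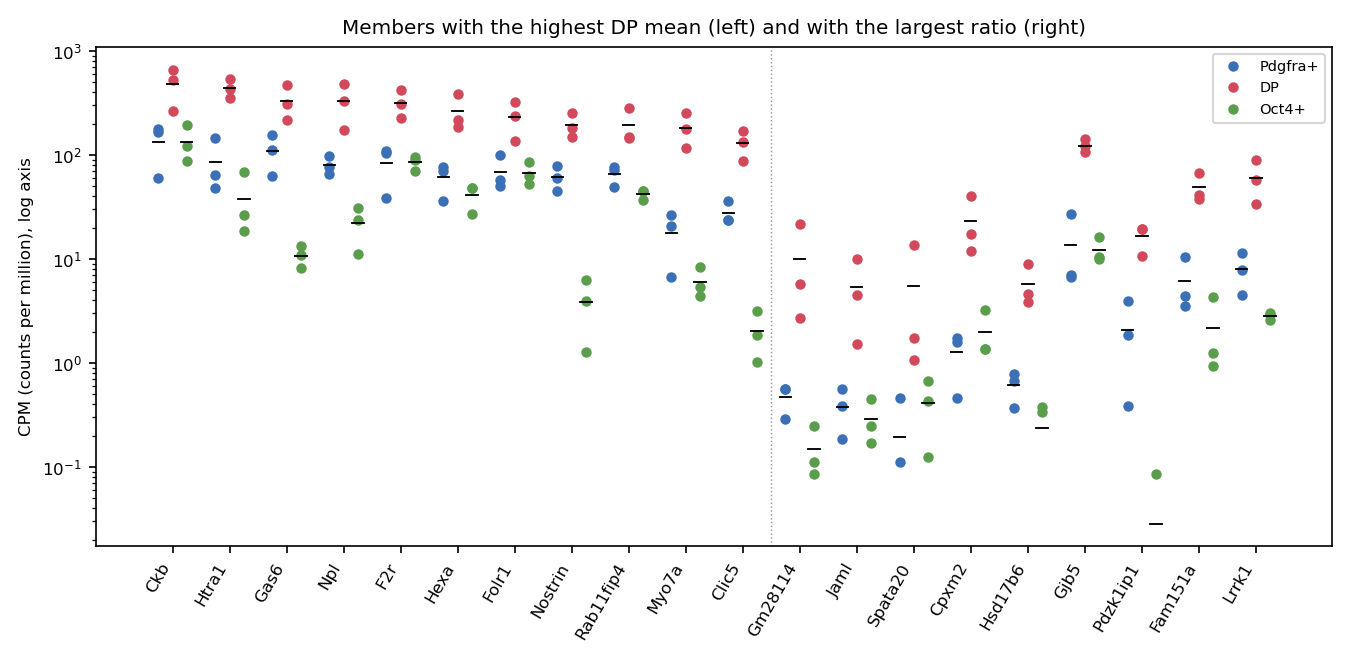
The vertical axis is CPM on a log scale, with each point a library, colours for the 3 sorted populations and black lines for group means. The 11 genes left of the dotted line are among those with the highest DP means and the 9 to the right among those with the largest ratios, libraries at 0 are not drawn, and for each gene the 3 DP points sit above the other 6, as the rule requires.

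Secreted ligands, inhibitors and hormones numbered 6. Gas6, a ligand of the TAM receptor tyrosine kinases, was at 217, 307 and 476 CPM in DP, against 111, 155 and 63 CPM in Pdgfra+ and 8.16, 13.3 and 10.8 CPM in Oct4+. Dkk1, which blocks Wnt receptors and was the only member in the list of anterior visceral endoderm, was at 73, 198 and 112 CPM in DP, against 36.8, 41.4 and 38.5 CPM in Pdgfra+ and 1.72, 7.32 and 2.99 CPM in Oct4+. In both, Oct4+ was lowest, while each DP library exceeded each Pdgfra+ library as the rule requires. Group means were 122 CPM in DP, 33.5 in Pdgfra+ and 9.47 in Oct4+ for Stc2 (stanniocalcin 2), 96.4 CPM in DP, 32.9 in Pdgfra+ and 2.01 in Oct4+ for Nrg2 (neuregulin 2, a ligand of ErbB receptors), 31 CPM in DP, 10.9 in Pdgfra+ and 4.05 in Oct4+ for Bmp6 and 10.6 CPM in DP, 0.79 in Pdgfra+ and 2.46 in Oct4+ for Wnt6. A Wnt ligand and a Wnt antagonist were thus both among the members. In Oct4+ against Pdgfra+, 5 of the 6 were called lower, and Wnt6, with a log2 fold change of 1.35 ± 0.56 (SE), was not (edgeR adjusted p = 0.058).

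Receptors and adhesion molecules numbered 9. F2r, the thrombin receptor PAR1, was at 225, 310.4 and 423 CPM in DP, against 104, 38.7 and 109 CPM in Pdgfra+ and 96.1, 70.1 and 90.2 CPM in Oct4+. Folr1, a folate receptor, was at 137, 326 and 237 CPM in DP, against 57.5, 100.4 and 49.8 CPM in Pdgfra+ and 62.9, 53 and 85.4 CPM in Oct4+. In these 2 genes Pdgfra+ and Oct4+ overlapped. Jaml, an adhesion molecule of the junctional family, was at 1.54, 4.51 and 10.1 CPM in DP, against 0.562, 0.186 and 0.388 CPM in Pdgfra+ and 0.172, 0.451 and 0.249 CPM in Oct4+, where the DP libraries spread over more than the distance from DP 1 to Pdgfra+. Group means (DP, Pdgfra+ and Oct4+) were Fgfr2 (90.8, 28.4 and 13.9 CPM), the FGF receptor, Susd2 (127, 34.3 and 30.3 CPM), Adgrg6 (70.2, 24.9 and 17.6 CPM), Timd2 (60.8, 19.9 and 0.835 CPM), a receptor for ferritin, Esam (41.2, 10.0 and 4.39 CPM), an endothelial adhesion molecule, and P2ry2 (11.1, 1.83 and 1.04 CPM), a receptor for extracellular ATP and UTP. Fgfr2 is annotated in a span that covers Htra1 and Cpxm2, also members, so reads in the shared intervals could be split by the authors' counting.

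Among 8 peptidases, glycan-degrading enzymes, protease inhibitors and complement genes, Htra1, a secreted serine protease, was at 353, 434 and 532 CPM in DP, against 145, 48 and 64.5 CPM in Pdgfra+ and 18.6, 26.7 and 68.5 CPM in Oct4+. Cpxm2, a carboxypeptidase-like protein, was at 12.1, 17.6 and 40.1 CPM in DP, against 1.57, 0.465 and 1.75 CPM in Pdgfra+ and 1.37, 1.35 and 3.24 CPM in Oct4+. Htra1 held 5.12 and Cpxm2 11.7 times the higher of the other means. Group means (DP, Pdgfra+ and Oct4+) were Hpse (17.1, 3.36 and 1.69 CPM), which encodes heparanase, Serping1 (28.9, 8.93 and 5.25 CPM), the C1 inhibitor, Serpina3m (24, 2.71 and 7.45 CPM), Serpinb9b (15.9, 4.79 and 4.89 CPM), C2 (12.3, 2.2 and 1.04 CPM), the complement component, and Xpnpep2 (7.69, 2.06 and 2.59 CPM), an aminopeptidase. Xpnpep2 was the nearest to overlapping, its lowest DP library being 1.01 times the highest of the other 6.

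Innate immune genes included 3 neighbours on chromosome 13 that encode NAIP sensors of bacterial proteins, Naip2, Naip5 and Naip6. Naip6 had group means of 112 CPM in DP, 26.7 in Pdgfra+ and 1.85 in Oct4+, Naip5 of 62.8 CPM in DP, 16.9 in Pdgfra+ and 1.31 in Oct4+ and Naip2 of 7.63 CPM in DP, 1.79 in Pdgfra+ and 0.287 in Oct4+. They are closely related copies 9647 and 34798 bases apart, and how the counting shared reads among them is unknown here, so the 3 are uncertain as separate observations. H2-Ab1, a chain of MHC class II, had 13.9 CPM in DP, 3.81 in Pdgfra+ and 3.66 in Oct4+. The 3 nuclear factors were read at low levels. Hesx1, a homeobox repressor, had 8.55 CPM in DP, 2.12 in Pdgfra+ and 0.543 in Oct4+, Hoxa10 had 7.09 CPM in DP, 1.36 in Pdgfra+ and 2.5 in Oct4+ and Bend7 had 8.69 CPM in DP, 2.69 in Pdgfra+ and 2.08 in Oct4+.

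Kinases, adaptors and regulators of small GTPases and the cytoskeleton were 10. Lrrk1, a kinase with leucine-rich repeats, was at 33.9, 57.9 and 89.2 CPM in DP, against 7.88, 4.55 and 11.4 CPM in Pdgfra+ and 2.92, 2.59 and 2.99 CPM in Oct4+, so that its DP mean was 7.61 times the higher of the other means. Group means (DP, Pdgfra+ and Oct4+) were Dok2 (115, 21.6 and 13.1 CPM), a docking protein of tyrosine kinase signals, Pdlim4 (66.6, 12.4 and 2.46 CPM), Arhgap9 (68.7, 20.5 and 4.03 CPM), a GTPase activating protein, Ppfibp2 (71, 19.4 and 15.3 CPM), Prickle2 (42.3, 9.91 and 6.31 CPM), of planar cell polarity, Dapk2 (24.4, 8.48 and 2.31 CPM), a death-associated kinase, Phactr1 (24.5, 7.07 and 2.07 CPM), an actin-binding regulator of protein phosphatase, Rasgrf2 (18.7, 4.76 and 0.846 CPM), a Ras exchange factor, and Tbc1d4 (7.74, 2.56 and 1.41 CPM), a Rab GTPase activating protein.

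Of the members with no role given here, Fam151a was at 37.8, 41.3 and 67.1 CPM in DP, against 10.5, 3.53 and 4.37 CPM in Pdgfra+ and 0.945, 4.28 and 1.25 CPM in Oct4+. Spata20 reached its mean mainly through 1 library and was at 1.06, 13.6 and 1.74 CPM in DP, against 0.113, 0.465 and 0 CPM in Pdgfra+ and 0.429, 0.676 and 0.125 CPM in Oct4+. The pseudogene Gm28114 had the largest ratio, 21.3, and was at 5.79, 21.5 and 2.73 CPM in DP, against 0.562, 0.558 and 0.291 CPM in Pdgfra+ and 0.0859, 0.113 and 0.249 CPM in Oct4+, so that DP 2 carried most of its mean. The other pseudogene, Gm5363, had 16.7 CPM in DP, 4.47 in Pdgfra+ and 2.6 in Oct4+. Others (DP, Pdgfra+ and Oct4+ means) were Niban1 (76.2, 18.2 and 27.2 CPM), Lrrn4 (54.9, 11.4 and 17 CPM), 2810459M11Rik (27.2, 6.58 and 1.59 CPM), Dmkn (24, 4.14 and 0.846 CPM), Tmem63c (19.1, 2.74 and 5.19 CPM), Kcnf1 (13.2, 2.17 and 3.94 CPM), a potassium channel subunit, and Fam78a (19.5, 5.88 and 6.12 CPM). The remaining 8 were Shisal2b (10.4, 0.415 and 2.97 CPM), Fam181b (14.5, 2.14 and 4.57 CPM), BC048679 (13.5, 3.12 and 0.685 CPM), Otulinl (9.5, 2.04 and 0.659 CPM), Frrs1l (9.61, 2.13 and 3.21 CPM), Tc2n (8.72, 1.02 and 1.88 CPM), Clvs1 (7.41, 2.45 and 0.708 CPM) and Gm10134 (5.3, 1.13 and 0.39 CPM). Gm10134 begins 680 bases beyond the end of Gbgt1, another member, on chromosome 2, and reads that cross the annotated ends could be counted to either.

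At the fold threshold, Niban1, Tmem30b and Adgrg6 lay just inside with ratios of 2.8, 2.81 and 2.82, and Apoa4, Foxf2 and Rhpn1 just outside with 2.79, 2.74 and 2.71. At the level threshold, Pde10a, Gm10134 and Jaml were inside at 5.19, 5.3 and 5.36 CPM, and Gna14, Gm20005 and Atp4a outside at 4.56, 4.42 and 4.31 CPM. Where libraries nearly touched, Xpnpep2, Shisal2b and Dapk2 were kept, while Arsj, Fbp2 and Dusp4 were among 13 genes that passed the fold and level and overlapped by library. The left-out genes had group means (DP, Pdgfra+ and Oct4+) of Cubn (2242, 583 and 25.4 CPM), Amn (630.3, 152 and 11.4 CPM), Aldh1l1 (122, 38.5 and 25.5 CPM), Bmp8a (7.29, 2.38 and 2.45 CPM) and Apoc1 (35.8, 4.44 and 14.2 CPM), and only Apoc1 missed the thresholds.

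The members rose and fell together across the 9 libraries by construction. Pearson's r of log2(CPM + 1) between each gene and the mean member profile ran from 0.638 (Lrrn4) to 0.988 with a median of 0.906. It was taken over 9 libraries that differ in depth and come from the 3 sorted populations. The genes outside the members with high r included Coro1b (0.992, mean 276 CPM in DP, 182 in Pdgfra+ and 160.3 in Oct4+), Rassf8 (0.981), Apoe (0.979, 1579 CPM in DP, 628 in Pdgfra+ and 374 in Oct4+) and Ubald2 (0.977), with DP means 1.51 to 2.52 times the higher of the others.

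The comparison of Oct4+ with Pdgfra+ was not fixed by the rule, which caps both means under DP without ordering them, and it asks which single-positive population held more of each gene. By edgeR's quasi-likelihood test over 14185 genes (adjusted p under 0.05 and a log2 fold change beyond 1.5), 35 members were lower in Oct4+ and 2 higher, 48 were not called and 1, Spata20, was not tested. Over all genes 14.7% were called lower and 17.3% higher, 32% in all. The members' median log2 fold change was -1.31 over 85 genes, against 0.01 over all genes. Leaving out any 1 library or changing the normalization, filter or tool gave 32 to 40 called members, with no reversal among the 37. In these repeats without 1 library, 10 of the 37 missed the thresholds at least once. They were BC048679, Clvs1, Fam151a, Gbgt1, Myo7a and Otulinl without Pdgfra+ 1, Bmp6 and Pgam2 without Pdgfra+ 2, Hesx1 and Lrrk1 without Pdgfra+ 3, and 7 of these also without an Oct4+ library.

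By role, the 12 apical and vesicle genes held 8 of the genes called lower, the 5 innate immune genes 4, the 6 secreted factors 5, the 10 kinases and adaptors 6, the 11 enzymes 4, the 9 receptors 1, the 3 nuclear factors 1 and the genes with no role given 6, while none of the 8 peptidase and inhibitor genes was called. Pdzk1ip1 had the largest fall, with log2 fold change -5.64 ± 1.10 (SE), adjusted p = 0.0013. Timd2 followed with log2 fold change -4.91 ± 0.58 (SE), adjusted p = 6.30e-05. Nrg2 (log2 fold change -4.32 ± 0.42 (SE), adjusted p = 1.97e-05) and Nostrin (log2 fold change -4.31 ± 0.46 (SE), adjusted p = 3.16e-05) fell by less. The 2 genes that rose in Oct4+ were Shisal2b (log2 fold change 2.55 ± 0.62 (SE), adjusted p = 0.0046) and Pgam2 (log2 fold change 1.64 ± 0.56 (SE), adjusted p = 0.026). Ckb, F2r and Folr1, in which the 2 populations overlapped, had log2 fold changes of -0.29 ± 0.45, -0.25 ± 0.36 and -0.32 ± 0.34 (SE).

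**Figure D3:**
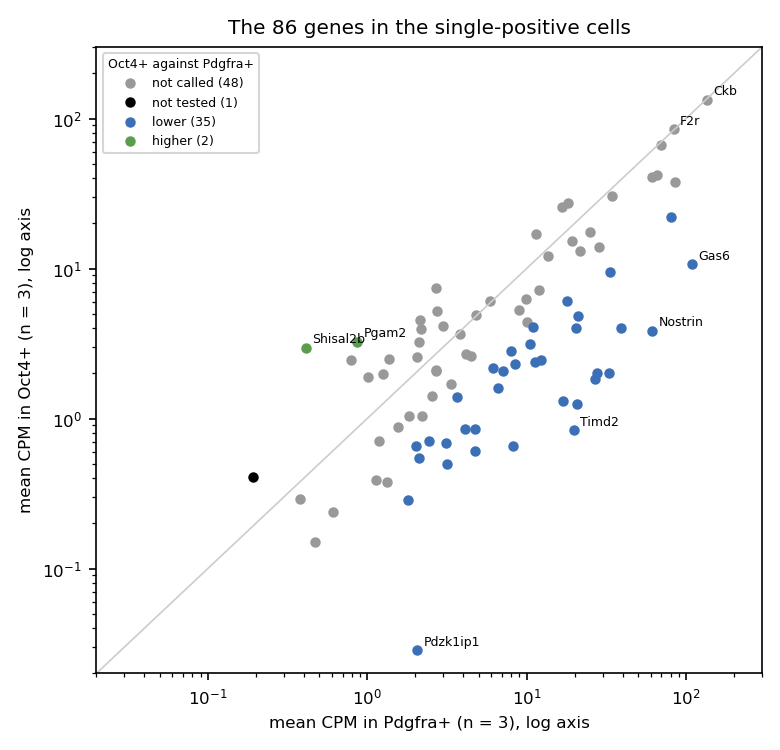
Both axes are mean CPM on a log scale, Pdgfra+ across and Oct4+ up, with a point for each member coloured by its edgeR call and a grey line of equality. The 35 genes called lower sit under the line, 2 called higher sit above it at left, and the abundant Ckb and F2r lie on it.

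Lists of endoderm and pluripotency genes, of which no member but Dkk1 and Cdhr2 was part, were tested for comparison. In DP against Pdgfra+ 3.2% of all genes were called higher and 0.691% lower (3.89% in all). Of 18 naive pluripotency genes 11 were higher and none lower (median log2 fold change 2.69, all genes 0.02), with Tcl1 (log2 fold change 4.65 ± 0.88 (SE), adjusted p = 0.02), Esrrb (log2 fold change 3.78 ± 0.38 (SE), adjusted p = 0.0072) and Nr0b1 (log2 fold change 3.73 ± 0.76 (SE), adjusted p = 0.024) leading. The 11 include Pou5f1 (log2 fold change 3.72 ± 0.42 (SE)), whose reporter set the sort. Pou5f1 is also counted among the called genes of this list in the other contrasts. Of 17 genes of visceral endoderm uptake and secretion, 2 were higher, Amn and Cubn, of 13 parietal endoderm genes and 10 brush border genes none was called, and of 9 interferon and Ly6 genes Ly6a and Ly6e were higher. Amn and Cubn passed the rule for members and were left out by name only. Their calls in DP against Pdgfra+ and against Oct4+ therefore rest on values that the rule used. Against Oct4+, where 13.1% of genes were higher and 14.6% lower in DP (27.7% in all), 14 of 17 visceral, 11 of 13 parietal and 7 of 10 brush border genes were higher and 13 of 18 pluripotency genes lower. Of 9 anterior visceral endoderm genes 1 (Sfrp1) was higher than in Pdgfra+. Of 14 JAK/STAT genes 1 (Socs2), of 7 trophectoderm genes 1 (Tfap2c), of 9 two-cell-like genes 1 (Usp17lc), and of 5 primitive streak, 14 p53 and stress and 6 feeder genes none was called in DP against Pdgfra+. Median log2 fold changes of these lists were 0.07 (JAK/STAT), 0.98 (trophectoderm), 2.66 (two-cell-like), 3.55 (primitive streak), -0.13 (p53 and stress) and -0.37 (feeder). The primitive streak median thus lay above that of the pluripotency genes and the two-cell-like median near it, though few of these genes were called. In Oct4+ against Pdgfra+, 15 of the 18 pluripotency and 9 of 9 two-cell-like genes were higher and 13 of 17 visceral endoderm genes lower. DP against Pdgfra+ called 19 list genes in all, Amn, Cubn and Pou5f1 among them, and 11, 8, 5, 7 or 9 without Pdgfra+ 1, Pdgfra+ 2, Pdgfra+ 3, DP 2 or DP 3.

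In single cells, the members were then followed in Oct4-LOF nEnd. Of the 86, 84 were found in the feature list. Cells with at least 2000 genes and at most 10% mitochondrial counts were kept, 5224 of 6896 barcodes in -4OHT and 6220 of 7283 in +4OHT, with medians of 18146 and 12725 unique molecular identifiers (UMIs). The libraries shared 21 barcodes. Scrublet called 186 cells (3.56%) doublets in -4OHT and 0 of 6220 in +4OHT, where it did not work. Cells were clustered without the members, Pou5f1, Pdgfra and the left-out genes, and each level is the CPM of the summed UMIs with an exact Poisson 95% interval, which covers counting error only. A ratio of at least 1.5 is described as past the fold. Between 2 groups this needed 20 UMIs in either group, and for a peak among 3 groups 20 UMIs in the highest. Counts that needed 20 UMIs in the group with the higher CPM, chosen after seeing the data, are given beside the others as the stricter count. No test was run since each condition was 1 library.

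Of 11 clusters, 5 were endoderm-like by markers, 2 epiblast-like, 1 each trophectoderm-like, two-cell-like and feeder fibroblast-like, and 1 remained unnamed. An endoderm-like cluster of 751 cells was led by Amn and Cubn, and 746 of its cells came from -4OHT. It held the members at 4023 CPM (3991 to 4055), while the other endoderm-like clusters held 675 to 1141 CPM, the epiblast-like clusters 356 and 469.5 CPM, the trophectoderm-like cluster 1084 CPM and the feeder-like cluster 769 CPM. Because nearly all its cells came from 1 library, the cluster may be particular to that library. Of 80 members with 20 UMIs in some cluster, 62 were highest in it, against 6.89% of all genes.

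Within -4OHT alone, the 746 cells of the Amn and Cubn cluster had a median of 18315 UMIs, 577 other endoderm-like cells had 11980 and 3657 epiblast-like cells had 19068. The members stood at 4029 CPM (3997 to 4061) in the cluster, 663 CPM (645 to 682) in other endoderm-like cells and 427 CPM (423 to 432) in epiblast-like cells. Of 80 members with 20 UMIs, 73 were at least 1.5 times higher in the cluster than in both others, against 5.67% of genes, and 78 were highest there at any size, against 19.3%. None was past the fold in other endoderm-like cells (13.7% of genes) and 1 in epiblast-like cells (24.3%). Pou5f1 was at 21.1 CPM in the cluster, 3.01 CPM in other endoderm-like cells and 48.3 CPM in epiblast-like cells, Pdgfra at 134.5, 168.5 and 1.84 CPM, and Nanog at 16.2, 6.02 and 180.5 CPM. Of the cells, 30.4%, 3.64% and 55.7% held a Pou5f1 UMI, and the part of free RNA in these shares was not tested. Doublets were called in 57 cells of the cluster (7.64%), against 0 of the other endoderm-like cells and 1.7% of the epiblast-like cells. The 73 members were past the fold also without them and among cells of at least 10000 UMIs. The part of doublets in the Pou5f1 and Nanog levels of the cluster was not tested.

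Each of the 9 receptors, the 6 secreted factors and the 3 nuclear factors was past the fold in the cluster, as were 10 of the 11 apical and vesicle genes, 9 of 11 enzymes, 9 of 10 kinases and adaptors, 4 of 4 innate immune genes and 5 of 7 peptidase and inhibitor genes with 20 UMIs. Npl was at 355 CPM in the Amn and Cubn cluster, 26.9 CPM in other endoderm-like cells and 5.36 CPM in epiblast-like cells. Fam151a was at 50.9 CPM in the Amn and Cubn cluster, 0.684 CPM in other endoderm-like cells and 0.311 CPM in epiblast-like cells, and Myo7a at 78.2 CPM in the Amn and Cubn cluster, 3.01 CPM in other endoderm-like cells and 1.29 CPM in epiblast-like cells. Ckb was at 552 CPM in the Amn and Cubn cluster, 115 CPM in other endoderm-like cells and 124 CPM in epiblast-like cells, so that its ratio to epiblast-like cells was 4.45. Gjb5 was at 171 CPM in the Amn and Cubn cluster, 5.61 CPM in other endoderm-like cells and 17 CPM in epiblast-like cells. Pdzk1ip1, Lrrn4 and Hsd17b6 rested on 1 or 2 UMIs in the other endoderm-like cells, with ratios of 57.4 (15.7 to 476), 70.6 (19.4 to 586) and 74.8 (13.2 to 2975). Among those that were not past the fold, Otulinl was at 22.1 CPM in the Amn and Cubn cluster, 20.7 CPM in other endoderm-like cells and 0.704 CPM in epiblast-like cells and Serpinb9b at 21.8 CPM in the Amn and Cubn cluster, 19.6 CPM in other endoderm-like cells and 0.88 CPM in epiblast-like cells, so that the 2 endoderm-like groups held them at ratios of 1.07 (0.882 to 1.31) and 1.11 (0.913 to 1.37). Eps8l1, Nox4 and Tbc1d4 also had intervals against other endoderm-like cells that included 1, and Pde10a had 13 UMIs in the cluster. Serpina3m was highest in epiblast-like cells, with 1.04 CPM there against 1 UMI in the cluster.

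**Figure D4:**
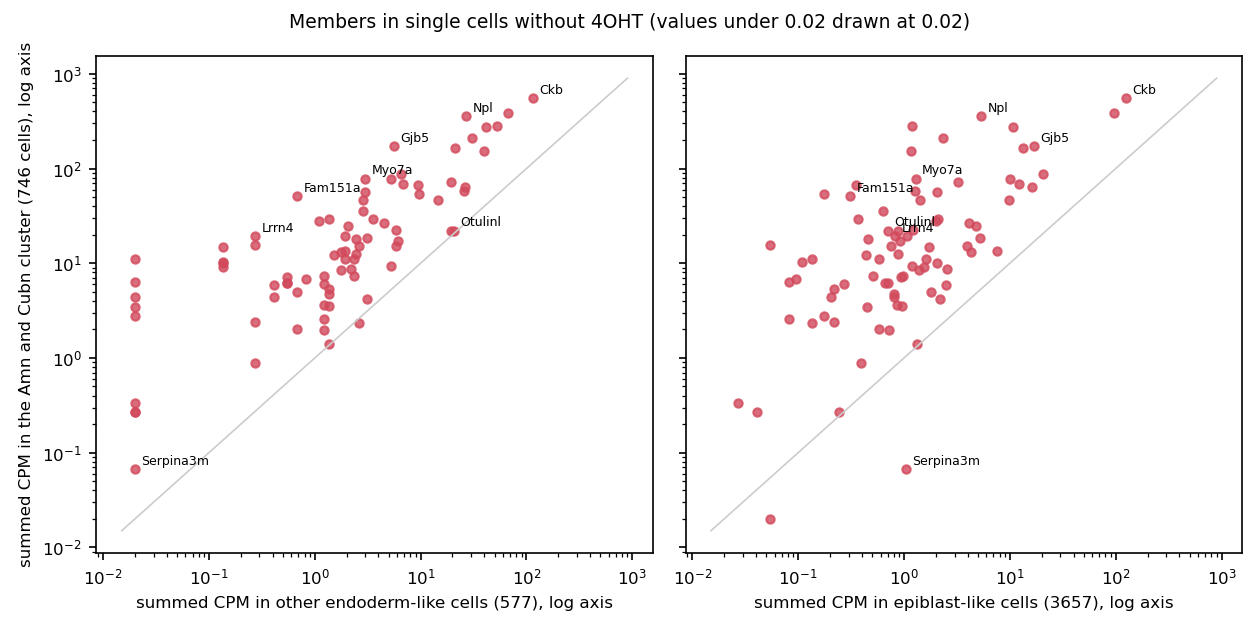
The vertical axis is the CPM of summed UMIs in the 746 cells of the Amn and Cubn cluster, and the horizontal axis that in 577 other endoderm-like cells (left) or 3657 epiblast-like cells (right), all on log scales, with a point for each member and a line of equality. Nearly all points lie above the line in both panels, while Otulinl lies on it at left and Serpina3m under it at right.

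Cells were also grouped by whether UMIs of Pou5f1 and Pdgfra were detected, with 961 cells with Pdgfra only, 329 with both, 2070 with Pou5f1 only and 1864 with neither in -4OHT. The bulk sort instead read the OCT4 reporter protein and surface PDGFRA, in another line. A cell without a UMI may still hold the transcript. A Pou5f1 UMI was found in 30.4% of cells of the Amn and Cubn cluster and 55.7% of epiblast-like cells. The members summed to 2489 CPM (2465 to 2514) in cells with Pdgfra only, 2445 CPM (2411 to 2479) in cells with both and 470 CPM (464 to 477) in cells with Pou5f1 only. Thus in -4OHT cells in which both transcripts were detected held the members in sum no higher than cells in which only Pdgfra was. The share of cells with undetected Pou5f1 among the latter was not tested, so these gates do not stand for the sorted DP and Pdgfra+ cells. In +4OHT the sums were 784 CPM (778 to 791), 1292 CPM (1246 to 1339) and 1494 CPM (1414 to 1577), so that the members in sum were higher with both than with Pdgfra only and highest with Pou5f1 only. Ckb alone made up 98.4, 153 and 582.5 CPM of these sums, so that the height with Pou5f1 only rested largely on this gene. The gates also held different cells. In -4OHT, 45.8, 61.1 and 1.26% of the cells with Pdgfra only, both and Pou5f1 only were in the Amn and Cubn cluster, 46.1, 5.17 and 0.193% were other endoderm-like cells and 4.37, 21.0 and 95.1% were epiblast-like. Nanog was at 19.8, 73.6 and 187 CPM in these gates and Sox17, an endoderm factor, at 191, 91.0 and 3.85 CPM, and their part in the members' level was not tested. Of 79 members, 6 were past the fold in cells with both over each of the others (0.403% of genes) and 35 were highest there at any size (13.4%). The 6 were Shisal2b, Snx20, Prickle2, Pgam2, Susd2 and Fam78a, Shisal2b being at 9.6 CPM (7.6 to 11.96), against 4.95 CPM with Pdgfra only and 1.87 CPM with Pou5f1 only. Lowest against the higher group were Otulinl and Serpinb9b, with ratios of 0.566 and 0.604. In +4OHT, where 133 cells held both and 54 Pou5f1 only, 5 of 66 members were past the fold (0.891% of genes) and 36 highest at any size (24.5%). Of the +4OHT cells with Pdgfra only, both and Pou5f1 only, 98.7, 85.7 and 25.9% were other endoderm-like and none was epiblast-like. Of the cells with Pou5f1 only, 1.85% were in the Amn and Cubn cluster. Most cells of this gate were thus in clusters that were neither endoderm-like nor epiblast-like. The part of these shares in the +4OHT sums was not tested. Amn was at 262 CPM in cells with Pdgfra only and 265 CPM in cells with both in -4OHT. Median depth was 14912, 22782 and 20604 UMIs, and with each cell thinned to 10000 UMIs 6 members were past the fold in -4OHT (0.676% of genes), 1 of them shared with the 6 above, and 4 in +4OHT (1.34%). Where 2 UMIs of a gene were required, 6 were past the fold in -4OHT (0.504%) and 1 in +4OHT (0.559%), and with all barcodes 6 (0.394%) and 7 (1.01%).

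Within endoderm-like cells of -4OHT, the 248 cells with a Pou5f1 UMI held the members at 3622 CPM and the 1075 without at 2678 CPM, 25 of 78 members being past the fold upwards (6.39% of genes) and none downwards (13.3%). The stricter count was 23 upwards (5.16%). With cells thinned to 10000 UMIs, 37 of 71 members were higher (6.27%) and 4 lower (16.1%). Taken apart by cluster, the difference in -4OHT was not seen. Inside the Amn and Cubn cluster, 227 cells with a Pou5f1 UMI held the members at 3836 CPM (3784 to 3889) and 519 without at 4135 CPM (4095 to 4176), 2 of 76 members being past the fold upwards (4.56%, stricter 4.43%) and 3 downwards (3.92%). Outside it, 21 cells with a Pou5f1 UMI held 632 CPM (555 to 718) and 556 without 665 CPM (646 to 685), 3 of 31 members being past the fold upwards (11.2%) and 12 downwards (17.6%), or 1 upwards by the stricter count (1.84%). Over all endoderm-like cells, Shisal2b had the highest ratio (2.59), but 1.14 in thinned cells, and Prickle2 (2.25) and Pgam2 (2.06) followed. In +4OHT, 129 endoderm-like cells with a Pou5f1 UMI held 1426 CPM and 5857 without 797 CPM, 36 of 67 members being past the fold upwards (10.7%) and 7 downwards (15.1%), led by BC048679 at 16.2 and 2.20 CPM and Gm10134 at 5.56 and 0.889 CPM. The stricter count was 16 upwards (2.28%), without Gm10134, which had 11 UMIs in cells with a Pou5f1 UMI. Thinned, 40 of 63 were higher (14.1%) and 8 lower (23%). Taken apart by cluster, the sums in +4OHT stayed higher in cells with a Pou5f1 UMI in clusters 1, 2 and 8. They were 1858 CPM (1753 to 1968) in 61 cells against 1106 CPM (1087 to 1126) in cluster 1, 1483 CPM (1354 to 1620) in 18 cells against 904 CPM (889 to 920) in cluster 2 and 1171 CPM (1099 to 1246) in 39 cells against 672 CPM (664 to 681) in cluster 8. In cluster 0, 10 cells with a Pou5f1 UMI held 886 CPM (751 to 1039), which overlapped the 769 CPM (757 to 781) of those without. By the stricter count, 10 of 52, 7 of 55, 6 of 60 and 0 of 56 members were higher in clusters 1, 2, 8 and 0 (2.89, 2.69, 2.02 and 0.879% of genes), and 7, 10, 7 and 30 were lower (16.3, 19.7, 17.2 and 32.8%). Depth within these clusters was not matched.

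The 4OHT comparison asks how the members' levels differed after the loss of Oct4. Endoderm-like cells numbered 1323 in -4OHT, of which 746 were in the Amn and Cubn cluster, and 5986 in +4OHT, of which 5 were, with most of the latter in cluster 8 (2106 cells), cluster 0 (1450), cluster 2 (1260) and cluster 1 (1165). Over all endoderm-like cells the members stood at 2919 CPM (2896 to 2941) in -4OHT and 811 CPM (805 to 818) in +4OHT. Of 79 members, 68 were past the fold downwards (14.2% of genes) and 2 upwards (29.0%), with a median log2 ratio of -2.10, against 0.18 over all genes, each ratio taken with 0.5 UMI added to both sums. The stricter count was 67 downwards (13.1%). Lrrn4 was at 13 CPM without and 0.0117 CPM with 4OHT (ratio 0.0009, interval 2.27e-05 to 0.00505), with 1 UMI in +4OHT. Mogat2 was at 6.09 CPM without and 0.0469 CPM with 4OHT (ratio 0.00771, interval 0.00207 to 0.0202), with 4 UMIs. Cpxm2 and Naip5 each had 2 UMIs in +4OHT, with ratios of 0.0127 (0.00149 to 0.0489) and 0.00765 (0.000908 to 0.0287), and Shisal2b had a ratio of 0.014 (0.00592 to 0.0282). Npl was at 247 CPM without and 17.3 CPM with 4OHT (ratio 0.0702, interval 0.0662 to 0.0743). The 2 higher genes were Serpinb9b, at 21.1 CPM without and 51 CPM with 4OHT (ratio 2.42, interval 2.2 to 2.67), and Tbc1d4, at 3.83 CPM without and 8.29 CPM with 4OHT (ratio 2.16, interval 1.72 to 2.74).

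Outside the Amn and Cubn cluster the fall was not seen over the members as a whole, and members lay past the fold in both directions at shares above those of all genes. In 577 and 5981 cells the members stood at 663 CPM (645 to 682) in -4OHT and 810.2 CPM (804 to 816) in +4OHT, 11 of 67 being past the fold downwards (6.62% of genes) and 25 upwards (16.7%), with a median log2 ratio of 0.23, against 0.07 over all genes, or 0.29 with 1 member listed at 0 in -4OHT set at 3 UMIs, the limit that a count of 0 allows. Of the 11 lower members, H2-Ab1, Fam181b, Hpse, Clvs1 and Tmem63c had 4 to 18 UMIs in -4OHT, and the other 6, Myo7a, Otulinl, Npl, Hesx1, F2r and Nrg2, made up the stricter count (2.96% of genes). In clusters 0, 1, 2 and 8 taken singly, 13 of 56, 12 of 54, 15 of 55 and 9 of 61 members were past the fold downwards (7.53, 13.2, 12.1 and 5.31% of genes) and 24, 25, 19 and 20 upwards (17, 25, 20.1 and 15.4%). The stricter count downwards was 5, 2, 0 and 4 (2.17, 1.67, 2.07 and 2.56%). Median log2 ratios of the members were 0.14, 0.14, -0.11 and 0.34 in these clusters, against 0.06, -0.02, -0.02 and 0.10 over all genes. Only the median of cluster 2 was thus negative. In sum the members of cluster 2 stood at 880 CPM (801 to 964) in the 49 cells of -4OHT and 917 CPM (902 to 932.5) in +4OHT, with overlapping intervals. In clusters 0, 1 and 8 the sums were higher in +4OHT. The fall over all endoderm-like cells went with the near absence of the cluster from +4OHT, and 4OHT and library cannot be told apart. Of the 5 genes lowest outside the cluster, H2-Ab1 was at 1.78 CPM without and 0.352 CPM with 4OHT (ratio 0.198, interval 0.1 to 0.414), Otulinl at 20.6 CPM without and 4.3 CPM with 4OHT (ratio 0.208, interval 0.172 to 0.253) and Myo7a at 3.01 CPM without and 1.23 CPM with 4OHT (ratio 0.41, interval 0.257 to 0.682). Hpse and Tmem63c, with 9 and 4 UMIs in -4OHT, had ratios of 0.429 (0.207 to 0.999) and 0.451 (0.152 to 1.81). Among the highest were Wnt6 with 1 UMI in -4OHT (ratio 9.53, 1.68 to 380), Stc2 at 3.15 CPM without and 11.8 CPM with 4OHT (ratio 3.75, interval 2.48 to 5.93), Fam78a at 0.684 CPM without and 2.36 CPM with 4OHT (ratio 3.45, interval 1.46 to 10.8) and Gjb5 at 5.61 CPM without and 16.7 CPM with 4OHT (ratio 2.98, interval 2.19 to 4.17).

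**Figure D5:**
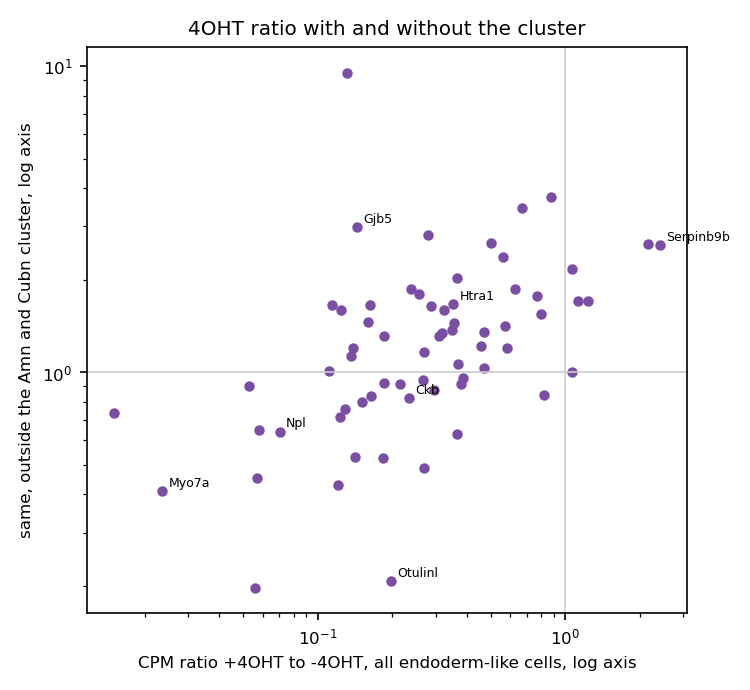
Each of 66 points is a member with at least 20 UMIs outside the cluster, with its CPM ratio of +4OHT to -4OHT over all endoderm-like cells on the horizontal axis and outside the Amn and Cubn cluster on the vertical axis, both log scales with grey lines at 1. Most points lie left of the vertical line and many above the horizontal line, Gjb5 among them, while Otulinl and Myo7a lie low on both axes.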

How the data were processed

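Reads of 9 bulk libraries of sorted nEnd cells were deposited by the authors as raw read counts per gene symbol. For this table, the sources at hand name no aligner, counter, build or annotation. The 35 lines without a gene name were left out. Single-cell UMI counts of 2 libraries were deposited by the authors as matrices, for which the submitters' processing notes name Cell Ranger and mm10. CPM was computed by library totals. Bulk groups were compared with edgeR 4.0.16 (TMM, filterByExpr, quasi-likelihood test, Benjamini-Hochberg adjustment) in 1 fit of all 9 libraries, with 14185 genes tested, and with DESeq2 1.42.0 as an alternative. Single cells were clustered with scanpy 1.11.5 (2000 variable genes, 20 components, 20 neighbours, Leiden resolution 0.6). Scripts were tested on simulated data.

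The members, lists, roles and comparisons were chosen with earlier results of these data known, and the division by the Amn and Cubn cluster, the split by a Pou5f1 UMI and the roles after seeing the data. Genes were named by rule: the 12 highest DP means, the 12 largest ratios, members in a list, the nearest genes at each threshold and the 5 largest single-cell ratios. Other members were given by group mean, and a few genes that these rules name are not reported here. Same-numbered DP and Pdgfra+ libraries deviated from their group means together (r = 0.311, 0.547 and 0.344 across genes), so that these numbers pair, as read from the counts and not from the labels, whereas those with Oct4+ did not. Gene positions are from GENCODE on GRCm38, matched by symbol for 85 and by an older symbol for Niban1. Alternatives were other normalizations, filters, tools, thresholds, each library left out, thinning of cells, cell filters and clusterings.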

Additional observations from a re-analysis of the deposited data

How the results depend on the processing

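The rule gave 94 members with TMM-scaled and 91 with DESeq2-scaled CPM, the former sharing 83 of the 86, 162 with a fold of 2, 38 with a fold of 4, and 69 with a DP mean of at least 10 CPM. Leaving out 1 library gave 74 to 111 members, 74 without DP 3 and 111 without DP 1. Members called in Oct4+ against Pdgfra+ numbered 32 to 39 on leaving out 1 library and 37 with the replicate block, 36 of them shared, and 27 of 37 were called under each alternative run, none reversing. List genes called were 19 in DP against Pdgfra+ (5 to 24 leaving out 1 library, 22 with the replicate block, 36 with no filter on low counts), 79 in DP against Oct4+ (77 to 88, block 80) and 84 in Oct4+ against Pdgfra+ (82 to 90, block 81). The pairing of replicates changed none of these counts by over 1.5 times.

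In single cells, members past the fold in +4OHT cells with both transcripts fell from 5 to 1 where 2 UMIs were required. Restricted to endoderm-like cells outside the Amn and Cubn cluster, members lower in +4OHT went from 68 to 11, higher from 2 to 25, and the median log2 ratio from -2.10 to 0.23, a reversal of the pooled median, though not in cluster 2 alone (-0.11). The split by a Pou5f1 UMI in -4OHT gave 25 higher members, 37 with cells thinned to 10000 UMIs, 2 within that cluster and 3 outside it. In +4OHT the count of this split was 36, or 40 thinned, and 16 where 20 UMIs were needed in the group with the higher CPM. In clusters 0, 1, 2 and 8 alone it was 19 of 56, 24 of 52, 22 of 55 and 26 of 60 members (17.4, 10.9, 18.6 and 11.5% of all genes). By the stricter count these were 0, 10, 7 and 6, and cluster 0 had only 10 cells with a Pou5f1 UMI. The stricter count and the settings by cluster were added after seeing the data. The cause of these shifts was not tested beyond the cluster itself. With 1 library per condition, no single-cell value has a replicate error, and 80 of the 84 matched members reached 20 UMIs in some -4OHT cell group.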
